A study of Homo sapiens with 6 samples.

Results

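The BCL2 family genes described here are 10 members chosen by name, followed in suspended PA1 cells, a long-established teratocarcinoma line from a human ovary. They were found by gene symbol in a table of 59653 gene symbols, and all 10 were present and passed the filter on low counts that left 17592 genes tested. Both groups were unmodified PA1 cells. They were transfected while adherent, either with a negative control small interfering RNA (control siRNA, 3 libraries) or with siRNA against SOX2 (SOX2 siRNA, 3 libraries), a transcription factor of pluripotent cells. According to the labels 2 siRNAs against SOX2 were used; pooling is not mentioned. Cells went to plates with a poly-HEMA coat, which blocks attachment, at 24 h and were harvested for RNA after a further 72 h. All libraries come from this 1 cell line, and no adherent culture was analysed here, so the comparison is of siRNA in suspended cells and not of suspension against attachment. The labels do not say whether replicates were separate cultures, and p-values measure the spread between these libraries only.

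BCL2 family proteins decide whether the outer membrane of mitochondria stays intact. The BH3-only proteins are the sensors: they bind and block the protective members or activate the effectors, and they are switched on by lost attachment, DNA damage or stress. The effectors BAX and BAK1 form the pores that let cytochrome c out and so start the caspases, and the protective members BCL2, BCL2L1 (BCL-XL) and MCL1 hold both other classes in check. Death after loss of attachment is called anoikis, and BCL2L11 (BIM) and BMF are the BH3-only members best known for it. The genes act largely as proteins through binding and turnover, so RNA levels describe only 1 layer of this control.

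The 10 genes fall into 5 BH3-only members (BCL2L11, BMF, BID, PMAIP1 and BBC3), 2 effectors (BAX and BAK1) and 3 protective members (BCL2, BCL2L1 and MCL1). After SOX2 siRNA, 3 BH3-only genes rose, namely BMF, BCL2L11 and BID, while PMAIP1 fell. Among the others BAX and MCL1 rose by smaller amounts, and BBC3, BAK1, BCL2 and BCL2L1 did not pass the test. In all, 6 of the 10 members had an adjusted p under 0.05, 5 higher and 1 lower. Of all tested genes 28.2% were called by the same rule, 14.8% higher and 13.4% lower (edgeR quasi-likelihood test, Benjamini-Hochberg adjustment over all tested genes). By role, 4 of 5 BH3-only genes, 1 of 2 effectors and 1 of 3 protective genes were called.

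The 4 BH3-only genes that changed are shown by the 250 bases before a transcription start that RefSeq lists, because they moved in opposite directions and the sequences show what lies before 1 such start of genes that rose and of the gene that fell. The sequences are from RefSeq on GRCh38.p14, at the first start listed for each gene, and 9 of the 10 members matched the promoter table; MCL1 did not. These starts are not the outermost ones in GENCODE 29, the annotation used below for gene positions: the BCL2L11 and BID windows lie wholly inside the gene, downstream of another annotated start, and the BMF and PMAIP1 windows overlap its first bases. Capitals mark matches, on either strand, to a FOXO-type site (GTAAACA), to the core of a cyclic AMP response element (TGACG, the site type that CREB and ATF4 bind) or to a SOX-type core (ACAAT or ACAAAG).
BCL2L11 (chr2:111120664-111120913, plus strand): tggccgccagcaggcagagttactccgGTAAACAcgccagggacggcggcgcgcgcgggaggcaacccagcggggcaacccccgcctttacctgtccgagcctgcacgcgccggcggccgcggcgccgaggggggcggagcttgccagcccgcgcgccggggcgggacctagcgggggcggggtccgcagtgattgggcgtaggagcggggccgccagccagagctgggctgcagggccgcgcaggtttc
BMF (chr15:40108880-40109129, minus strand): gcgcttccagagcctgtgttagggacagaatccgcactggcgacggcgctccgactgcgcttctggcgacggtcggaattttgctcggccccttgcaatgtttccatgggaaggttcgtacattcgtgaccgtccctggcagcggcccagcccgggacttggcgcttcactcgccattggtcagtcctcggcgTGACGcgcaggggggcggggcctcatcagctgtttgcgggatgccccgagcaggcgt
BID (chr22:17774470-17774719, minus strand): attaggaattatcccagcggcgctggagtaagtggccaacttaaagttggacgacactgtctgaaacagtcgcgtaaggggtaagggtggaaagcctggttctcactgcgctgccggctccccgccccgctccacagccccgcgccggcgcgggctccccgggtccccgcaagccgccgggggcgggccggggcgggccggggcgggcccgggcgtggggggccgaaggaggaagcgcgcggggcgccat
PMAIP1 (chr18:59899746-59899995, plus strand): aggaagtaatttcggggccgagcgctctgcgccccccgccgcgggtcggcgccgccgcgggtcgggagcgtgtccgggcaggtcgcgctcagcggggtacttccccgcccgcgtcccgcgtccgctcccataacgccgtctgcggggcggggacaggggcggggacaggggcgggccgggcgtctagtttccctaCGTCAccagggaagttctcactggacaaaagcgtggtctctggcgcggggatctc

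The BCL2L11 window held 1 FOXO-type match, which began 223 bases before the start; such a match was found in 2.98% of the 27305 promoters of the same length. The BMF and PMAIP1 windows each held 1 TGACG match, beginning 57 and 55 bases before the start, where 21.7% of all promoters held one; BAX, BCL2 and BCL2L1 held one too, which makes 5 of the 9 members. The SOX-type letters were in none of the 4 windows printed and, among the 9 members, only in that of BCL2L1, against 34.2% of all promoters. These letters are rich in A and T, and the promoters were not matched for base composition. G and C made up 65.2% to 76.8% of the 4 windows printed, 50% of that of BCL2L1 and 49.2% of that of BBC3. The part of composition in the matches was not tested. The E-box CACGTG was found 4 times in the BAX window and once in that of BBC3, and in 6.49% of all promoters. The GC box GGGCGG was present in 6 of the 9 member windows and in 42.3% of all promoters; the motifs overlap in part with each other, as in BAX where TGACG and CACGTG share letters. These are matches of letters within 250 bases and not shown binding sites. 

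Depth ranged from 25152313 to 32753184 counts per library, so that 3 counts, taken as the floor of detection, were worth 0.0909 to 0.120 CPM, the unit used here for counts after TMM scaling of each library to the same size. SOX2 itself was at 245, 265 and 256 CPM in the control libraries (replicates 1, 2 and 3) and at 51.8, 54.9 and 50.6 CPM after SOX2 siRNA, a log2 fold change of -2.28. Of 7 markers of embryonal carcinoma, POU5F1, LIN28A, SALL4 and PODXL were abundant, L1TD1 and DPPA4 were low, and TDGF1 did not exceed 3 counts in any library. Some of these markers of the line itself differed between the groups, in opposite directions. PODXL fell from 1316 ± 15.0 to 671 ± 25.1 CPM (SD, n = 3; log2 change -0.97; edgeR adjusted p = 9.54e-13). LIN28A rose from 706 ± 3.61 to 1148 ± 10.4 CPM (SD, n = 3; log2 change 0.70; edgeR adjusted p = 1.80e-11) and POU5F1 by 0.17 on the log2 scale (edgeR adjusted p = 0.00798), while SALL4, L1TD1 and DPPA4 were not called. Markers of other cell types moved with the groups in part. The 3 endothelial markers summed to between 74.5 and 77.5 CPM in control and between 49.9 and 51.9 CPM in SOX2 siRNA libraries, the 3 fibroblast markers to between 30.4 and 33.7 and between 40.4 and 46.9 CPM, and the 4 ovarian or tubal epithelial markers to between 10.2 and 12.97 and between 9.06 and 10.7 CPM. A single gene made up most of the endothelial and of the fibroblast sum. PECAM1 was at 64.2 ± 1.48 and 43.7 ± 0.545 CPM (SD, n = 3), and it, CDH5 and VWF were all called lower. PDGFRA, at 30.9 ± 1.65 and 42.5 ± 3.28 CPM (SD, n = 3), was the only fibroblast marker called; LUM was not called, and DCN, with at most 4 counts in any library, was not tested. Of the epithelial markers WT1 alone was called, lower (edgeR adjusted p = 0.0134). The 3 leukocyte markers summed to at most 0.277 CPM, with 2 of them at no more than 3 counts in any library. Mitochondrial genes took between 6.54% and 7.08% of control counts and between 6.47% and 6.60% of SOX2 siRNA counts. The part of these differences in the results on the BCL2 family was not tested. In such bulk RNA fewer cells of a kind and less RNA per cell cannot be told apart.

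**Figure D1:**
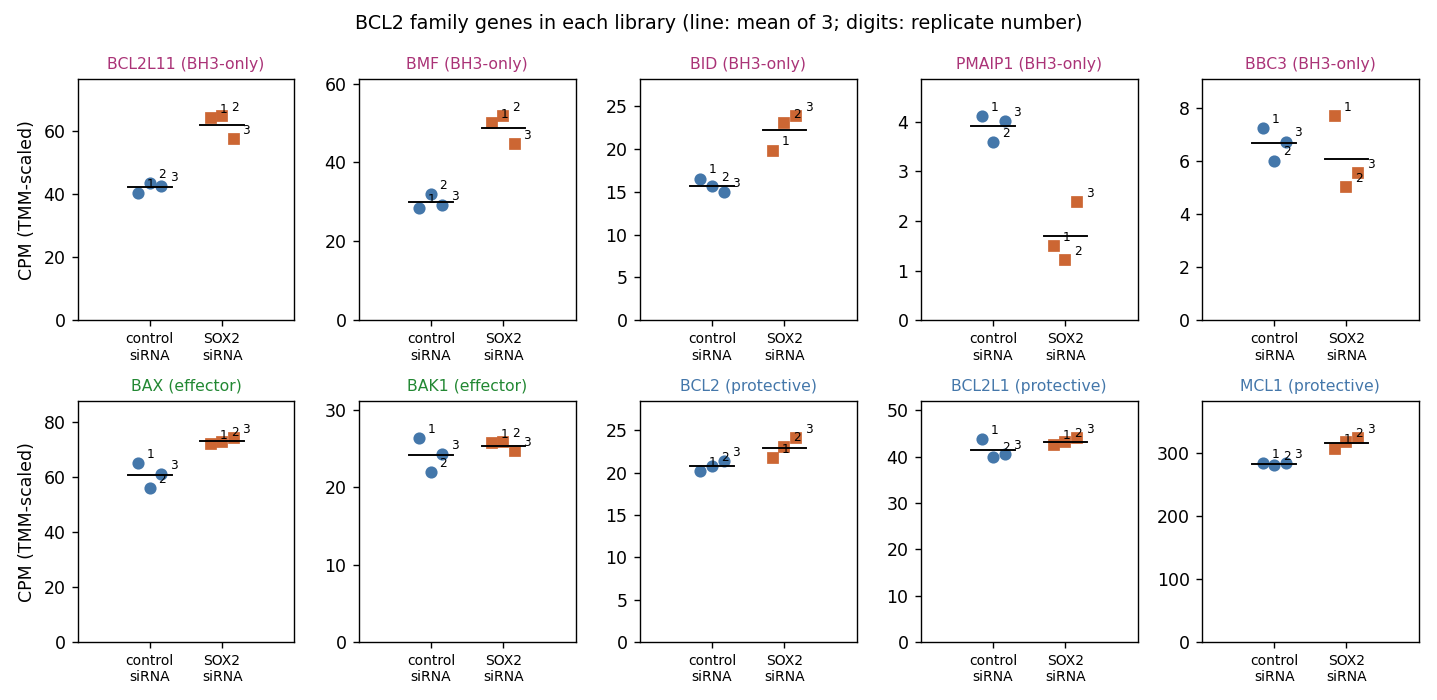
TMM-scaled CPM (vertical axes, from 0) of each BCL2 family gene in 3 control siRNA libraries (blue circles) and 3 SOX2 siRNA libraries (orange squares), with the mean as a line and the replicate number beside each point. BCL2L11, BMF, BID, BAX, BCL2 and MCL1 lie higher in every SOX2 siRNA library than in any control library, PMAIP1 lies lower, and BBC3, BAK1 and BCL2L1 overlap.

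Among the BH3-only genes, BMF, whose protein is held on the actin and myosin cytoskeleton until cells detach, had the largest rise. It was at 28.5, 31.9 and 29.3 CPM in the control libraries (replicates 1, 2 and 3) and at 49.9, 51.8 and 44.7 CPM after SOX2 siRNA. The lowest SOX2 siRNA library was well above the highest control library, and replicate 3 was the lowest of the SOX2 siRNA libraries. Mean expression went from 29.9 ± 1.80 to 48.8 ± 3.66 CPM (SD, n = 3), 1.64-fold (95% interval 1.50 to 1.79), a log2 change of 0.71 (SE 0.0609; edgeR adjusted p = 1.46e-07).

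BCL2L11 encodes BIM, which binds every protective member and can also activate BAX and BAK1 directly. Its values were 40.2, 43.5 and 42.4 CPM in the control libraries (replicates 1, 2 and 3) and 63.9, 64.7 and 57.3 CPM after SOX2 siRNA. All SOX2 siRNA libraries were above all control libraries, again with replicate 3 the lowest of them. The mean went from 42.0 ± 1.70 to 62.0 ± 4.08 CPM (SD, n = 3), 1.48-fold (95% interval 1.37 to 1.60; log2 change 0.56, SE 0.0531; edgeR adjusted p = 3.31e-07).

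BID, which caspase 8 cuts to link death receptors to mitochondria, was at 16.5, 15.6 and 14.9 CPM in the control libraries (replicates 1, 2 and 3) and at 19.8, 23.1 and 23.9 CPM after SOX2 siRNA. The groups did not overlap, but here replicate 1 was the lowest of the SOX2 siRNA libraries and replicate 3 the highest. The mean rose from 15.7 ± 0.802 to 22.2 ± 2.15 CPM (SD, n = 3), 1.41-fold (95% interval 1.27 to 1.58; log2 change 0.50, SE 0.0746; edgeR adjusted p = 6.46e-05). The gene for caspase 8, CASP8, did not pass the test (44.2 ± 0.853 and 45.0 ± 2.48 CPM, SD, n = 3); it was chosen for mention after its values were seen.

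PMAIP1 encodes NOXA, a BH3-only protein that binds mainly MCL1 and is known as a target of the DNA damage response and of the stress factor ATF4. It was the least abundant member by CPM, with 136, 90 and 116 counts in the control libraries (replicates 1, 2 and 3) and 45, 39 and 71 after SOX2 siRNA. On the scaled basis these are 4.12, 3.59 and 4.01 CPM in control and 1.49, 1.21 and 2.38 CPM in SOX2 siRNA libraries. Every SOX2 siRNA library was below every control library, with replicate 3 the highest of the SOX2 siRNA group. The mean fell from 3.91 ± 0.279 to 1.69 ± 0.610 CPM (SD, n = 3), so that 43.1% of the control level remained (log2 fold change -1.21, 95% interval -1.65 to -0.78; edgeR adjusted p = 3.13e-04). The coefficient of variation between SOX2 siRNA libraries was 36.1%, where counting alone gives 13.9%, against 7.14% and 9.37% in control. Without 1 library at a time the log2 fold change of PMAIP1 ranged from -1.54 to -1.02. Its log2 fold change lies at percentile 1.25 among all tested genes, and 1.59% of them were called lower by at least 2-fold.

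BBC3 encodes PUMA, which binds every protective member. It was at 7.27, 6.03 and 6.75 CPM in the control libraries (replicates 1, 2 and 3) and at 7.72, 5.04 and 5.56 CPM after SOX2 siRNA. SOX2 siRNA replicate 1 was the highest of all 6 libraries and the other two of its group were the lowest. The difference did not pass the test (log2 fold change -0.14, 95% interval -0.45 to 0.18; edgeR adjusted p = 0.547). Without SOX2 siRNA replicate 1 the gene was called lower, at a log2 fold change of -0.34 (edgeR adjusted p = 0.0436), so 1 library decides this call.

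**Figure D2:**
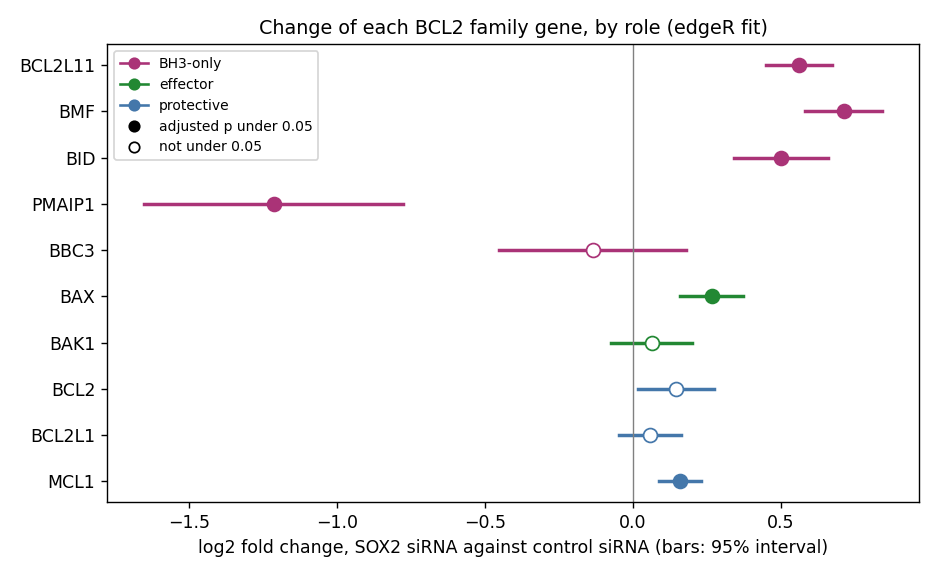
Log2 fold change of SOX2 siRNA against control siRNA (horizontal axis) for the 10 genes, with 95% intervals from the edgeR fit as bars and colour for role; filled points have an adjusted p under 0.05. BH3-only genes span -1.21 to 0.71, while the effector and protective genes lie between 0.06 and 0.27.

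Of the effectors only BAX passed the test. BAX was at 64.9, 55.8 and 60.9 CPM in the control libraries (replicates 1, 2 and 3) and at 71.9, 72.7 and 74.1 CPM after SOX2 siRNA. The groups did not overlap, and the spread lay mostly among the control libraries, of which replicate 2 was the lowest. The mean rose from 60.5 ± 4.58 to 72.9 ± 1.13 CPM (SD, n = 3), 1.20-fold (95% interval 1.12 to 1.29; log2 change 0.27, SE 0.0502; edgeR adjusted p = 6.36e-04). BAK1, the other pore former, which sits on the mitochondrial membrane even in healthy cells, was at 26.4, 22.0 and 24.3 CPM in control and at 25.8, 25.8 and 24.7 CPM in SOX2 siRNA replicates 1 to 3. Its groups overlapped, and the log2 fold change was 0.06 with a 95% interval of -0.07 to 0.20 (edgeR, Benjamini-Hochberg adjusted p = 0.515). At most a 1.15-fold rise or a fall to 0.951 of control lies within that interval.

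Of the protective genes, MCL1, which encodes a short-lived protein and the main partner of NOXA, was at 284, 280.4 and 283 CPM in the control libraries (replicates 1, 2 and 3) and at 306, 317 and 323 CPM after SOX2 siRNA. The control libraries lay very close together and all SOX2 siRNA libraries were above them. The mean rose from 283 ± 1.91 to 316 ± 8.62 CPM (SD, n = 3), a 1.12-fold change (95% interval 1.06 to 1.17; log2 change 0.16, SE 0.0340; edgeR adjusted p = 0.00178). BCL2, the founding member of the family, was at 20.2, 20.8 and 21.3 CPM in the control libraries (replicates 1, 2 and 3) and at 21.7, 23.1 and 24.1 CPM after SOX2 siRNA. These groups did not overlap either, by a narrow margin, and the test was not passed (log2 fold change 0.14, 95% interval 0.02 to 0.27 before adjustment; edgeR adjusted p = 0.0863). Without SOX2 siRNA replicate 1 it was called higher, at 0.18 (edgeR adjusted p = 0.0444). BCL2L1 was at 43.8, 40.0 and 40.6 CPM in control and at 42.6, 43.1 and 44.0 CPM in SOX2 siRNA replicates 1 to 3. Its groups overlapped (log2 fold change 0.06, 95% interval -0.05 to 0.16; edgeR adjusted p = 0.429).

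Set side by side, the median log2 fold change was 0.50 over the 5 BH3-only genes, 0.16 over the 2 effectors and 0.14 over the 3 protective genes, against -0.00085 over all tested genes. These medians carry no test, cover only the 10 members, and the BH3-only median hides the fall of PMAIP1. Among tested relatives outside the 10, the BH3-only genes BAD and HRK had log2 fold changes of 0.20 and -0.44. The effector-like BOK had -0.29 and the protective BCL2L2 0.12, and of these relatives only BOK was called. The groups of libraries did not overlap for 7 of the 10 members, where 41.8% of all tested genes had groups that did not overlap. The 3 BH3-only genes that rose lie between percentiles 94.1 and 96.7 of the log2 fold changes of all tested genes, and MCL1 at 77.6. Exact two-sided permutation tests of each gene alone, 3 libraries against 3, gave p = 0.1 for those 7 genes, the smallest value this design allows, and 0.143 after Benjamini-Hochberg adjustment over the 10 genes; BBC3, BAK1 and BCL2L1 gave 0.5, 0.6 and 0.3.

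Ratios of 2 members within a library do not depend on scaling between libraries and were taken as a description, without a test. The ratio of MCL1 to PMAIP1 counts was 68.9, 78.0 and 70.6 in the control libraries (replicates 1, 2 and 3) and 205, 263 and 136 after SOX2 siRNA. It was higher in every SOX2 siRNA library, by 1.42 on the log2 scale, and the SD of its log2 values was 0.0952 in control and 0.480 in SOX2 siRNA libraries (n = 3). The ratio of MCL1 to BCL2L11 moved the other way, from 7.07, 6.44 and 6.68 in control to 4.79, 4.90 and 5.65 in SOX2 siRNA replicates 1 to 3, a log2 difference of -0.40. In the same libraries MCL1 was thus higher relative to PMAIP1 and lower relative to BCL2L11.

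BCL2L1 counts were 1.09, 0.919 and 0.957 times those of BCL2L11 in control replicates 1 to 3 and 0.666, 0.666 and 0.769 times in SOX2 siRNA replicates 1 to 3. Against BMF and BID the ratio of BCL2L1 was lower in every SOX2 siRNA library as well, with log2 differences of -0.65 and -0.44. BAX counts were 2.46, 2.53 and 2.51 times those of BAK1 in control and 2.79, 2.82 and 3.01 times in SOX2 siRNA replicates 1 to 3, which do not overlap. Among the protective genes, MCL1 to BCL2L1 was higher in every SOX2 siRNA library by a log2 difference of 0.10, and BCL2 to BCL2L1 overlapped. The ratios of BAX to BCL2 and of BAK1 to MCL1 overlapped between the groups.

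**Figure D3:**
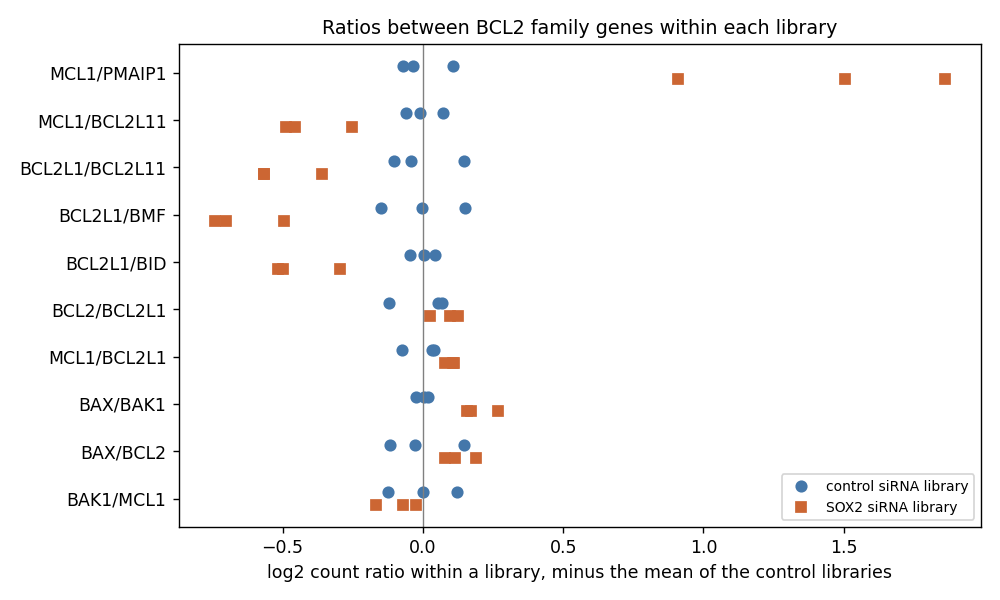
Log2 ratio of counts of 2 BCL2 family genes within each library, with the mean of the 3 control libraries set to 0 (horizontal axis), for the 10 pairs compared; blue circles are control siRNA and orange squares SOX2 siRNA libraries. MCL1/PMAIP1 lies to the right in all 3 SOX2 siRNA libraries, and the ratios MCL1/BCL2L11, BCL2L1/BCL2L11, BCL2L1/BMF and BCL2L1/BID lie to the left.

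To compare levels between genes, CPM was divided by the length of each gene's exons in GENCODE 29, taken as the union over transcripts. On this scale MCL1 was the highest in control libraries at 64.6 ± 0.437 CPM per kb (SD, n = 3), followed by BAX at 23.4 ± 1.77, BCL2L1 at 12.5 ± 0.624 and BAK1 at 10.96 ± 0.992. The BH3-only genes BCL2L11, BMF and BID came next at 6.31 ± 0.256, 5.48 ± 0.330 and 3.53 ± 0.180 CPM per kb, and BBC3, BCL2 and PMAIP1 were lowest at 2.10 ± 0.196, 1.77 ± 0.0495 and 1.75 ± 0.125 CPM per kb. Neighbours in this order did not overlap between their 3 control values, except BCL2 and PMAIP1. In SOX2 siRNA libraries PMAIP1 was alone at the bottom with 0.757 ± 0.273 CPM per kb. There BCL2L11 and BMF overlapped at 9.31 ± 0.612 and 8.96 ± 0.673 CPM per kb, and so did BCL2 and BBC3. With the longest coding transcript as the length, the control order was the same, BMF and BID then overlapped and BCL2 and PMAIP1 did not, and in SOX2 siRNA libraries BCL2L11 stood before BAK1, with which it overlapped, and BBC3 before BCL2.

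**Figure D4:**
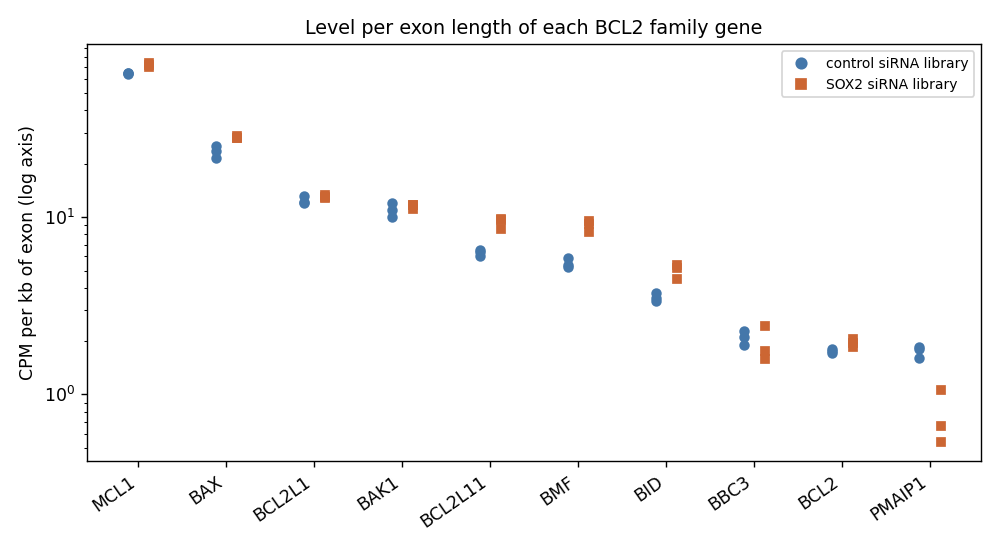
CPM per kb of union exon length (vertical log axis) of each gene in the 3 control siRNA (blue circles) and 3 SOX2 siRNA libraries (orange squares), ordered by the control mean. MCL1 is at 64.6 and PMAIP1 at 1.75 CPM per kb on average in control libraries.

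Counts per gene do not separate splice forms, which matters for BCL2L1 and MCL1, whose short forms are known to promote death, and for BCL2L11, whose forms differ in potency. Reads of neighbours could enter some counts, because the use of strand is not given in the sources used here. In GENCODE 29 exons of BCL2L11 (chr2:111119378-111168447) overlap those of MIR4435-2HG on the other strand, which had 637 to 875 counts per library and did not pass the test (log2 fold change 0.07; edgeR adjusted p = 0.352). Exons of BMF (chr15:40087890-40108892) overlap those of BMF-AS1, which had 0 counts in all 6 libraries. Exons of BAK1 (chr6:33572547-33580293) and BCL2L1 (chr20:31664452-31723989) overlap those of GGNBP1 and ABALON, each with at most 4 counts per library, and the pseudogene BAK1P1 had 3 to 18 counts. MCL1 (chr1:150574551-150579738) has exon overlap with ADAMTSL4-AS1 on the same strand, at 15 to 31 counts. PMAIP1 (chr18:59899948-59904306), BID (chr22:17734138-17774770) and BAX (chr19:48954815-48961798) have no exon overlap there, nor has BCL2 (chr18:63123346-63320128), and BBC3 (chr19:47220822-47232766) overlaps 2 microRNA genes, MIR3190 and MIR3191, at 0 counts in all libraries.

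Other genes of the pathway were taken from 8 lists of 87 genes in all, of which 82 were tested and 32 called, 19 higher and 13 lower. In the rest of the BCL2 family 2 of 10 tested genes were called, both lower. BOK, an effector-like gene, fell from 30.0 ± 2.78 to 24.6 ± 1.84 CPM (SD, n = 3; log2 change -0.29; edgeR adjusted p = 0.00685). BCL2L14 had a log2 fold change of -1.32 at very low levels, 26, 13 and 21 counts in control and 8, 8 and 9 in SOX2 siRNA replicates 1 to 3 (edgeR adjusted p = 0.00610). The BH3-only genes BAD and HRK had log2 fold changes of 0.20 and -0.44 and were not called (edgeR adjusted p = 0.0652 and 0.154). The protective BCL2L2 (0.12) and the more distant relatives BCL2L12 (0.05), BCL2L13 (-0.11), BCL2L15 (-0.41), BNIP3 (0.01) and BNIP3L (0.22) were not called either. BCL2L2 shares exons with the read-through gene BCL2L2-PABPN1, and BNIP3 has near-identical pseudogene copies, so their counts are uncertain. BIK had 6 counts in each control library and 4, 3 and 0 in SOX2 siRNA libraries, and the protective BCL2A1 and BCL2L10 had at most 3 counts in any library; these 3 genes were not tested.

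Downstream of the mitochondrial pore, 2 of 14 genes were called. CYCS, the cytochrome c gene, fell from 219 ± 4.65 to 192 ± 11.6 CPM (SD, n = 3; log2 change -0.19; edgeR adjusted p = 0.00210), and VDAC3, a channel of the outer membrane, rose by a log2 fold change of 0.15 (edgeR adjusted p = 0.0110). Both genes have processed pseudogene copies that may share reads. CASP6, CASP8 and CASP9, and APAF1, which activates caspase 9, were not called; they too were chosen for mention after their values were seen. Of 5 caspase inhibitors only BIRC5 (survivin), which also serves in cell division, was called, at a log2 fold change of 0.16 (edgeR adjusted p = 0.00570).

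Among transcription factors known to drive BH3-only genes, 6 of 11 tested genes were called, 3 in each direction. ATF3 and JUN fell, with log2 fold changes of -0.66 and -0.37, and MYC and E2F1 rose, with 0.61 and 0.25 (edgeR adjusted p = 2.97e-04, 0.00525, 0.0119 and 0.00157). FOXO1, FOXO3 and FOXO4, which act on BCL2L11, were not called, at log2 fold changes of 0.01, 0.12 and 0.14. ATF4 rose by 0.12 (edgeR adjusted p = 0.0228); it and the FOXO genes were chosen for mention after their values were seen. 

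PMAIP1, BBC3 and BAX are also known to be induced by DNA damage, and other genes of that response were called in both directions, 2 higher and 3 lower of 10. CDKN1A, a cell cycle inhibitor, rose from 14.1 ± 0.344 to 24.8 ± 2.80 CPM (SD, n = 3; log2 change 0.81; edgeR adjusted p = 4.74e-07), and SESN2 rose by 0.49. MDM2, a ubiquitin ligase gene, and ZMAT3 had log2 fold changes of -0.27 and -0.28 (edgeR adjusted p = 3.04e-05 and 1.17e-04). Of 6 other ATF4 targets SESN2 alone, counted in both lists, was called. All 6 had positive log2 fold changes, with a median of 0.29 that carries no test. PMAIP1 thus fell in libraries in which BAX and CDKN1A rose and MDM2 and ZMAT3 fell. Of the 10 other genes of the DNA damage response, 7 had negative log2 fold changes.

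**Figure D5:**
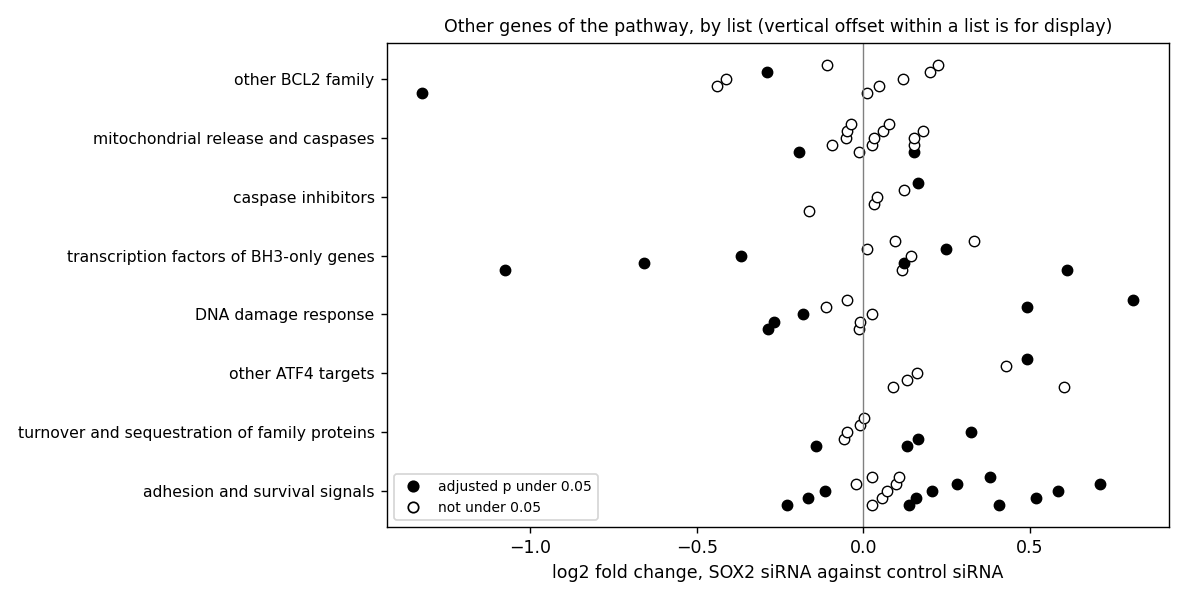
Log2 fold change (horizontal axis) of the tested genes of the 8 further lists; filled points have an adjusted p under 0.05 in the edgeR fit. The adhesion and survival list has 12 of 19 genes called, 9 to the right of 0, and the list of mitochondrial release and caspases has 2 of 14.

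Proteins that hold or degrade BCL2 family members gave 4 calls among 8 genes. DYNLL2, the dynein light chain that tethers BMF, rose from 169 ± 0.553 to 211 ± 3.84 CPM (SD, n = 3; log2 change 0.32; edgeR adjusted p = 1.21e-06). Its relative DYNLL1, which tethers BIM and was chosen for mention after its values were seen, was at 139.9 ± 2.75 and 140.2 ± 7.65 CPM and was not called. The ubiquitin ligase genes MARCHF5 and FBXW7, which act on MCL1, rose by 0.17 and 0.13 on the log2 scale, and BTRC had a log2 fold change of -0.14 (edgeR adjusted p = 0.0277, 0.0484 and 0.0205).

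Genes of adhesion and its survival signals were called in 12 of 19 cases, 9 higher and 3 lower. ITGB1, the common beta chain of matrix-binding integrins, rose from 729 ± 22.6 to 1044 ± 18.3 CPM (SD, n = 3; log2 change 0.52; edgeR adjusted p = 3.52e-09). ITGA5, its partner in the fibronectin receptor, rose from 62.0 ± 3.56 to 93.1 ± 4.95 CPM (log2 fold change 0.59; edgeR adjusted p = 1.05e-07). The kinase genes AKT1 and SRC, which carry survival signals from attached integrins, rose by 0.38 and 0.41 on the log2 scale (edgeR adjusted p = 3.59e-06 and 4.47e-06). These lists carry no test of their own, and their shares of calls stand beside the 28.2% of all tested genes.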

How the data were processed

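In all, 3 control and 3 SOX2 siRNA mRNA libraries of PA1 cells were analysed. The deposited table holds the authors' raw read counts, whole numbers per gene symbol, 1 column per library, matched to groups through descriptions and titles. Per the submitters' processing notes, bcl2fastq 2.20.0, STAR 2.7.3a, Salmon 0.14.1, DESeq2 1.28.1 and GRCh38.p13 were used; which of these made the counts, the annotation and the use of strand are not given in the sources used here.

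Counts were fitted with edgeR 4.0.16 in R 4.3.3: filterByExpr (minimum count 10), TMM scaling (factors 0.991 to 1.01), robust quasi-likelihood F-test on group, Benjamini-Hochberg adjustment over 17592 genes, threshold 0.05. Standard errors and 95% intervals (not adjusted) come from that fit. CPM use TMM-scaled library sizes, and floors of 3 counts cover counting error only, since PCR copies are not independent molecules. limma 3.58.1 and DESeq2 1.42.0 served as alternatives, beside other scalings, other filters, the replicate block and fits without 1 library. Single genes were also compared by exact permutation. Levels per length used GENCODE 29 (GRCh38), which need not be the authors' annotation. Promoter windows are from RefSeq on GRCh38.p14.

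Replicates of a group differed by more than counting noise (chi-square per degree of freedom 2.85 to 6.32). Data were simulated on 17592 genes for the comparison of SOX2 siRNA with control. Changes of 1.25-, 1.5-, 2- and 4-fold were recovered in 46%, 72%, 82% and 96% of 50 genes each. Of the simulated calls 14.5% were false, which is above the threshold of 0.05. Only those genes were changed, a far smaller share than the 28.2% of genes called in the data. The false share therefore need not carry over to the data. Members, lists, ratios and tests were chosen with earlier results of these data known. Named from each list were up to 4 called genes of smallest p and all of the rest of the BCL2 family. No library was left out. Some genes of the lists are counted in their totals and not reported here by name.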

Additional observations from a re-analysis of the deposited data

How the results depend on the processing

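The 6 called members, BAX, BCL2L11, BID, BMF, MCL1 and PMAIP1, were called in the same direction under each of 15 alternatives: 3 other scalings, 2 other low-count filters, limma-voom, the Wald test of DESeq2, a non-robust edgeR fit, the replicate block and 6 fits that each left out 1 library. BAK1 and BCL2L1 were called under none. Without SOX2 siRNA replicate 1, BBC3 (-0.34) and BCL2 (0.18) were called too, so that members called ranged from 6 to 8 without 1 library and members called lower rose from 1 to 2; fits without 1 library gave log2 fold changes from -0.34 to -0.016 for BBC3 and from 0.11 to 0.18 for BCL2. All genes called ranged from 3760 to 5212, and upper-quartile scaling changed the higher share of calls from 52.4% to 45.8% and the median log2 fold change to -0.02, which left the directions of the members as they were.

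Counts of calls in the short lists moved more. Caspase inhibitors went from 1 to 2 with no filter beyond 1 count and with the replicate block, and from 0 to 2 without 1 library. Mitochondrial release and caspase genes went from 2 to between 1 and 3, other ATF4 targets from 1 to between 1 and 2, and transcription factors from 6 to between 3 and 6 without 1 library. The rest of the BCL2 family went from 2 to 1 with at least 10 counts in every library and with DESeq2, the first because that filter removes BCL2L14, and to 3 with upper-quartile scaling, no filter beyond 1 count, limma-voom, a non-robust fit or without SOX2 siRNA replicate 3. Turnover and sequestration genes went from 4 to 2 with DESeq2 and to between 1 and 4 without 1 library. Except where stated, the cause was not tested.

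Both groups carry replicate numbers, but same-numbered libraries did not deviate together (correlations of deviations across genes 0.110, -0.0059 and 0.0017). With the replicate block the log2 fold changes of BMF, BCL2L11, BID and PMAIP1 were 0.71, 0.56, 0.50 and -1.24, 5177 genes were called and no member changed its call. PMAIP1 had the fewest counts, 39 in its lowest library, but counting was not its main spread. Its coefficient of variation between SOX2 siRNA libraries was 36.1%, where counting alone gives 13.9%. In simulated data changes of 1.25-fold, the smallest simulated, were recovered in 46% of genes drawn at random from all levels. The changes of BAX and MCL1 were smaller, but these genes lie at percentiles 79.6 and 97.2 of mean level. That share therefore need not hold for them. The length used for levels per kb was varied after seeing the data.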

Other observations

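BNIP3 and DDIT4, both known as genes that low oxygen induces, differed among the SOX2 siRNA libraries more than between the groups. BNIP3 was at 81.2, 87.0 and 108.7 CPM in control replicates 1 to 3 and at 136, 87.6 and 55.1 CPM in SOX2 siRNA replicates 1 to 3, and its pseudogene copies make its counts uncertain. DDIT4, which is also an ATF4 target, was at 33.9, 40.4 and 44.7 CPM in control and at 69.9, 54.1 and 35.5 CPM in SOX2 siRNA replicates 1 to 3. SOX2 siRNA replicate 3 was the lowest and replicate 1 the highest of its group for both genes. The 10 members had no common order in the same 3 libraries. BBC3 was highest in replicate 1 and PMAIP1 highest in replicate 3. BID, BAX, BCL2, BCL2L1 and MCL1 were lowest in replicate 1 and highest in replicate 3. BMF, BCL2L11 and BAK1 were highest in replicate 2 and lowest in replicate 3. Whether these spreads belong together was not tested, and replicates of a group have no order.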
